A study of Mus musculus with 16 samples.

Results

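The promoters described here carried RNA polymerase II (Pol II) in vehicle-treated mouse CD8+ T cells and had no Pol II peak in cells treated with the LSD1 inhibitor GSK2879552 (GSK). Each promoter was a window of 1 kb on either side of a transcription start site (TSS) of a curated RefSeq transcript in the mouse genome build mm10, with 1 window per distinct TSS. A window was chosen when it overlapped, by at least 1 bp, a peak of the vehicle (Veh) Pol II list and no peak of the GSK Pol II list. Of 31603 windows, 2239 met this rule, at 1973 of 26180 genes, and they are called the Veh-only promoters below. They were 7.08% of all windows, with a Wilson 95% interval from 6.81 to 7.37. They were thus chosen by the presence of a Veh Pol II peak and the absence of a GSK one, so this percentage and each Pol II value of these promoters describe the choice and test nothing.

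The cells were splenic CD8+ T cells of OT1 mice, which carry a transgenic T cell receptor against an ovalbumin peptide, and the labels state no age. They were activated for 48 h with plate-bound anti-CD3 (2 μg/ml), anti-CD28 (2 μg/ml) and IL-2 (20 ng/ml), then expanded in IL-2 for 3 days, with 0.5 μM GSK2879552 or vehicle throughout. Chromatin immunoprecipitation with sequencing (ChIP-seq) used 6 antibodies: they recognised Pol II, the enzyme LSD1, acetylated lysine 27 of histone H3 (H3K27ac) and its lysine 4 with 1, 2 or 3 methyl groups (H3K4me1, H3K4me2 and H3K4me3). A peak list of 1 library was given for each antibody and treatment, so no difference between treatments has a replicate check and no p-value is given. Intervals below cover counting error only, and TSSs that lie close together are not independent. In bulk cells, fewer cells carrying a bound protein and less of it per cell cannot be told apart.

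Pol II transcribes protein-coding genes and many non-coding ones, and it often pauses just downstream of the TSS, where ChIP gives a sharp peak. LSD1 (Kdm1a) removes methyl groups from mono- and dimethylated lysine 4 of histone H3 within the CoREST complex, and GSK2879552 blocks it irreversibly. H3K4me3 marks active and poised promoters, H3K4me2 promoters and enhancers, H3K4me1 mainly enhancers and promoter flanks, and H3K27ac, an acetyl mark, active promoters and enhancers.

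The sequences of 6 Veh-only promoters are printed first, because the results return to these genes. Camk1d, Hsf1 and Traf5 were among the strongest by Veh Pol II, Tbx21 encodes the T-bet transcription factor of effector T cells, Pdcd1 encodes the inhibitory receptor PD-1, and Isg15 encodes an interferon-induced ubiquitin-like protein. The bases were read from GRCm38.p6, which has mm10 coordinates, 5′ to 3′ on the gene's strand, and they stop just before the TSS. They are 250 bases long except for Hsf1, where 112 bases separate its TSS from that of Bop1 on the other strand. Capitals mark a match, on either strand, to CCAAT (the CCAAT box), GGGCGG (the GC box), CCGGAAG (an ETS core) or GAAANNGAA (the core of the interferon-stimulated response element). GAAANNGAA was added to the search after the values had been seen. Camk1d is at chr2:5714763-5715012 on the minus strand, Hsf1 at chr15:76477250-76477361 on the plus strand, Traf5 at chr1:192092600-192092849 on the minus strand, Tbx21 at chr11:97115332-97115581 on the minus strand, Pdcd1 at chr1:94052554-94052803 on the minus strand and Isg15 at chr4:156200819-156201068 on the minus strand.
Camk1d: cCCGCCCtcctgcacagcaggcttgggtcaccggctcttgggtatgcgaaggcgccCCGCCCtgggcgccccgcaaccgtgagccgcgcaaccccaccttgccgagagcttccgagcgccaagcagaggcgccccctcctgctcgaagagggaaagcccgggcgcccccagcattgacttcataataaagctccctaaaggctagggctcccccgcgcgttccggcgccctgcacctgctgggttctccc
Hsf1: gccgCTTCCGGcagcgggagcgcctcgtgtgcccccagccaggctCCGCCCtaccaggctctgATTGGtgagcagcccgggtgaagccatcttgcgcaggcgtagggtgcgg
Traf5: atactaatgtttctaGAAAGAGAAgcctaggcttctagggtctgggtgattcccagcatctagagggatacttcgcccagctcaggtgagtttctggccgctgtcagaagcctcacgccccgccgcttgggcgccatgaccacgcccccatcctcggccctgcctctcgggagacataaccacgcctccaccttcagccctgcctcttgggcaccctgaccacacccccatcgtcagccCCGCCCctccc
Tbx21: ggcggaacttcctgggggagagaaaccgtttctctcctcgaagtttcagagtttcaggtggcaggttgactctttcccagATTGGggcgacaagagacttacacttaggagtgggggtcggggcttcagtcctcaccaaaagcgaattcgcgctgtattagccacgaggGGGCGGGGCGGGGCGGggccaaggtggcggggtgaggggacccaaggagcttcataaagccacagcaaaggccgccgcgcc
Pdcd1: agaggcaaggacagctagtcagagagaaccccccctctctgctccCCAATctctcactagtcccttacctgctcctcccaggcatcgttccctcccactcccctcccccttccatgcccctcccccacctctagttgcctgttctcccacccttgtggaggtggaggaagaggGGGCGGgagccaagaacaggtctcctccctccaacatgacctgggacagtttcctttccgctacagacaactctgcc
Isg15: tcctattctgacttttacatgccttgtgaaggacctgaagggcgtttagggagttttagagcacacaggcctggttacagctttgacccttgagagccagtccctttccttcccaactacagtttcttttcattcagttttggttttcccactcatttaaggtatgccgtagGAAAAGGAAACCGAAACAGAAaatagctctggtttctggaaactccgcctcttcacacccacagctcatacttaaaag

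Camk1d held GC boxes 249 and 194 bases before the TSS. Hsf1 held a CCAAT box at 49, a GC box at 67 and an ETS core at 108 bases before its TSS. Tbx21 held overlapping GC boxes at 81, 76 and 71 bases and a CCAAT box at 170 bases, and Pdcd1 held a GC box at 77 and a CCAAT box at 205 bases. Isg15 held GAAANNGAA in overlapping copies at 78, 72 and 66 bases and neither of the 2 boxes, and Traf5 held it at 235 bases with a GC box at 11 bases. These matches are letters in a window and say nothing on binding.

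Across all Veh-only promoters, the sequence was that of CpG-rich mammalian promoters. In the window from 250 bases before to 50 after the TSS, the median GC content was 60.3%, against 61.7% at promoters with Pol II in both treatments, 60.3% at promoters with Pol II in GSK only and 52.3% at promoters with no Pol II peak. The observed CpG frequency was at least 0.6 of the frequency expected from base content at 72.2% of the Veh-only promoters, against 82.8% of those with Pol II in both, 69.2% in GSK only, 28.2% in neither and 44.1% of all. The difference from promoters with Pol II in both was -10.7 percentage points (Newcombe 95% interval, -12.8 to -8.62), and that from promoters with Pol II in GSK only was 2.94 (-0.55 to 6.54). All 23273 windows that the RefSeq promoter table also held were identical to those cut from the genome, among them 1770 of the 2239 Veh-only promoters.

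The GC box was in 63.4% of the Veh-only promoters, 66.9% of those with Pol II in both, 59.3% in GSK only and 43.2% of all promoters, counting both strands. The ETS core was in 19.9%, 25.2%, 16.8% and 10.4% of the same sets. The Veh-only share of the ETS core differed by -5.29 percentage points from that of promoters with Pol II in both (-7.20 to -3.30) and by 3.09 from that of promoters with Pol II in GSK only (0.04 to 5.95). The CCAAT box was in 39.4% of Veh-only and 37.3% of all promoters, the TATA box core TATAAA in 6.21% and 12.3%, and the E-box CACGTG in 11.3% and 7.67%. The AP-1 site TGACTCA was in 3.31% and 4.72%, the STAT pattern TTCNNNGAA in 7.28% and 7.91%, and GAAANNGAA in 9.20% and 8.23%. A small group stood apart in sequence: the 118 Veh-only promoters with no H3K4me3 peak in either treatment had a median GC content of 46.3%, TATAAA in 22.9% and the CpG ratio at or above 0.6 in 5.93%.

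An opposite-strand TSS lay within 1 kb of 612 Veh-only promoters, 27.3% (25.5 to 29.2), against 31.4% of promoters with Pol II in both, 19.3% in GSK only and 14.1% of all. The strongest example is the Bop1 and Hsf1 pair, whose start sites share 1 Pol II peak. Bop1 works in ribosome biogenesis and Hsf1 encodes the main heat shock transcription factor. Protein-coding genes supplied 2051 of the Veh-only promoters, long non-coding RNAs 153 and microRNAs 19.

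The lists differed in length and in their weakest peaks, which bears on each comparison below. The Pol II lists held 15638 Veh and 15401 GSK peaks, and 8928 and 7586 promoters had one. LSD1 had 21252 Veh and 19919 GSK peaks, H3K4me1 34387 and 40272, H3K4me2 15219 and 9437, H3K4me3 15779 and 16887, and H3K27ac 7410 and 2751. The lowest −log10 p was near 3.00 in the LSD1 and Pol II lists and between 4.99 and 6.47 in the histone lists, which are in the broad peak format, where MACS2 gives the mean over the region rather than the value at a summit. The study's read totals were higher for Veh than for GSK in H3K27ac, by far, and in H3K4me2, and lower for Veh than for GSK in H3K4me1 and Pol II. The part of depth in the results was not tested. All 8 CD8 T cell marker genes had H3K4me3 in both treatments, with Pol II at 5 in Veh and 7 in GSK, while 0 marker genes of the CD4 T, B, myeloid, NK and other tissue lists had Pol II. H3K4me3 was at 1 of 4 CD4 T, 2 of 6 B cell, 1 of 6 myeloid, 0 of 2 NK and 1 of 4 other tissue marker genes.

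The Pol II peaks that chose these promoters were weaker than those at promoters with Pol II in both treatments. MACS2 gives each peak a fold enrichment over the local background and a −log10 p. At the Veh-only promoters the median Veh Pol II fold was 4.35 (quartiles 3.68 and 5.07, highest 10.3), against 5.74 where Pol II was in both, and the median −log10 p was 6.95 (range 3.05 to 27.5) against 12.2. The peaks had a median width of 274 bp against 428 bp. The summit lay within 250 bp of the TSS at 1466 Veh-only promoters (65.5%, interval 63.5 to 67.4), with a median position 43 bp downstream of the TSS, against 70.9% where Pol II was in both.

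The stronger the Veh peak, the smaller was the share of Veh-bound promoters with no GSK peak. It was 64.8% (61.2 to 68.3) of the 677 promoters with a Veh −log10 p from 3 to 5, 48.3% of 1442 from 5 to 7, 33.7% of 2117 from 7 to 10 and 14.7% of 2300 from 10 to 15. It was 3.93% of 1018 from 15 to 20 and 1.02% of 1374 at 20 or more. The Veh-only promoters were thus drawn mostly from the weaker Veh peaks, and 14 of them had a −log10 p of 20 or more.

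The list of just-inside promoters shows how near the rule's edge some were. The lowest Veh −log10 p was 3.05 at Ugt1a6a, a glucuronosyltransferase gene, 3.07 at Klhl42 and 3.09 at Ppp1r16a. The nearest GSK Pol II peak lay 1004 bp from the TSS of Arsa (arylsulfatase A), 1006 bp from Sp3os and 1011 bp from Lmntd2, just past the window. Just outside the rule, Sh3glb2 had Pol II in both lists with a GSK −log10 p of 3.00 (Veh 5.11), Ttc33 with 3.06 (Veh 4.84) and Elp4 with 3.07 (Veh 8.03).

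By the rule, no GSK Pol II peak lay inside the window of a Veh-only promoter, so the counts below cover only what lay beyond it. They describe the choice in part, and no other promoter set was measured beside them. The 2239 promoters rested on 1750 distinct Veh Pol II peaks, of which 18 overlapped a GSK peak outside the window. A GSK Pol II peak lay within 2 kb of the TSS at 67 promoters (2.99%) and within 5 kb at 148, and the median distance to the nearest was 35080 bp. Among the 391 promoters with a Veh −log10 p of at least 10, 24 had a GSK peak within 2 kb, and among the 14 at 20 or more, 3 did. These were Mir1949 (1046 bp), Tkfc (1038 bp) and Slc37a4 (1119 bp). Of the 1973 genes, 1717 had every TSS among the Veh-only promoters, and 55 had a GSK Pol II peak at another TSS. A Pol II peak in the gene body beyond the window was found at 368 of the genes in Veh, 285 in GSK and 150 in both. In all, 965 promoters shared their Pol II peak with another of the set.

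**Figure D1:**
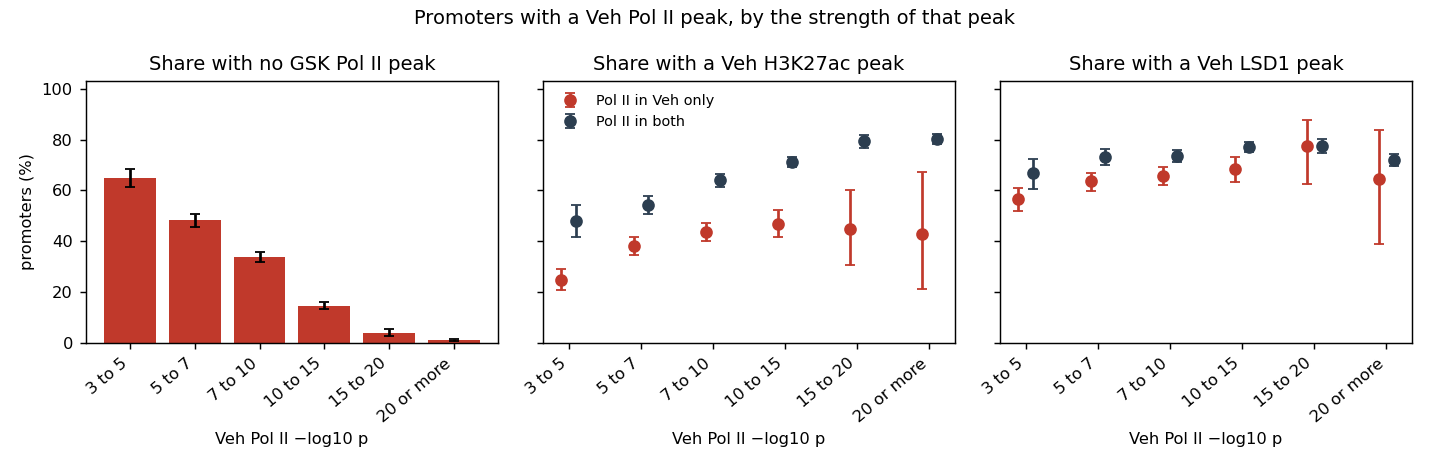
Promoters with a Veh Pol II peak in 6 bins of its −log10 p (x axis): the share with no GSK Pol II peak (left) and the share with a Veh H3K27ac peak (middle) or a Veh LSD1 peak (right), in percent of promoters. Red marks promoters with Pol II in Veh only and dark blue those with Pol II in both, and error bars are Wilson 95% intervals. The left bars go from 64.8% down to 1.02%, and the red H3K27ac points lie below the dark blue ones in each bin.

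The strongest Veh-only promoter outside a microRNA gene was that of Camk1d, a calcium/calmodulin-dependent protein kinase gene. Its Veh Pol II peak, chr2:5714086-5714587 (mm10), reached 10.3-fold (−log10 p 25.4), and the nearest GSK Pol II peak was 101028 bp away. LSD1 was at 3.62-fold in Veh and 6.55-fold in GSK, H3K4me2 at 3.72 and 4.31, H3K4me3 at 5.03 and 4.95, with no H3K4me1 or H3K27ac peak. The Bop1 and Hsf1 start sites, whose bases are printed above, shared a Veh Pol II peak at chr15:76477338-76477793 of 9.27-fold. LSD1 there was at 3.33 in Veh and 6.76 in GSK, and H3K4me3 at 5.65 and 5.60. At both places LSD1 and H3K4me3 peaks were in both lists while Pol II was in one.

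Traf5, an adaptor of tumour necrosis factor receptors in lymphocytes, had a Veh Pol II fold of 9.54, an LSD1 peak in GSK only (3.65-fold), an H3K27ac peak in Veh only (3.76-fold) and H3K4me3 at 5.66 in Veh and 5.25 in GSK. Sin3b, a corepressor that recruits histone deacetylases, had a Pol II fold of 9.19, LSD1 at 6.23 and 5.80 and H3K4me3 at 9.58 and 9.33. Map7d1, a microtubule-associated protein gene, had a Pol II fold of 7.79, LSD1 in GSK only (3.22) and H3K27ac in Veh only (2.72). Tomm6, a subunit of the mitochondrial import pore, and its antisense neighbour Tomm6os shared a Pol II peak of 8.25-fold, which ChIP cannot assign to either strand. Rpl36, a ribosomal protein gene, had a Pol II fold of 6.84, LSD1 in GSK only (4.10) and H3K27ac in Veh only (3.69). The remaining promoters of the 10 strongest were Mir1949 (9.34-fold), Tkfc (7.76-fold) and Slc37a4 (8.21-fold), whose GSK Pol II peak lay just past the window as given above. Their Veh Pol II summits also lay outside the window, at -1126, -1378 and -1201 bp from the TSS. Pol II was thus listed near each of these TSSs in both treatments, and the window's edge decided their place in the set.

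H3K4me3 was listed at nearly the same Veh-only promoters in Veh and in GSK. It was at 94.4% of them in Veh and 94.6% in GSK, with 2110 promoters in both lists, 4 in Veh only, 7 in GSK only and 118 in neither. Those with H3K4me3 in GSK only were 0.313% of the set, beside 1.52% of all promoters, and those with it in Veh only were 0.179%, beside 0.351%. The net change, the share with a peak in GSK only minus that with a peak in Veh only, was 0.134 percentage points (-0.144 to 0.342). With both lists held to 15779 peaks it was -0.134 (-0.404 to 0.191), and both intervals held 0. Of the Veh-only promoters with H3K4me3 in Veh, 99.8% also had it in GSK.

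The height of the H3K4me3 peak was then compared. The GSK/Veh ratio of the H3K4me3 folds had a median of 1.006 at the 2110 promoters. It was 1.014 where Pol II was in both and 1.013 where Pol II was in GSK only. Ranked by fold among promoters with H3K4me3 in both lists, the Veh-only promoters moved from Veh to GSK by a median of -0.706 percentiles, with 57.2% of them lower in GSK, against -0.309 where Pol II was in both and -0.181 where it was in GSK only. Ranked by −log10 p, the shift was -1.60 with 62.0% lower at the Veh-only promoters, -0.793 where Pol II was in both and -0.0709 where it was in GSK only. By either rank the Veh-only promoters had the most negative median of these sets, with 1 library for each treatment.

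The 4 and 7 promoters whose H3K4me3 peak was in Veh only and in GSK only had folds from 1.96 to 7.70. Spi1, the myeloid and early lymphoid factor PU.1, had H3K4me3 in Veh only at 3.41-fold, with LSD1 in GSK only (3.46) and H3K27ac in Veh only (3.56). Inhbe, an activin subunit gene, had it in Veh only at 4.29-fold. The other 2 in Veh only, the predicted genes Gm10369 (5.39-fold) and Gm16008 (2.70-fold), were named after their values were seen. In GSK only, Pmel, a melanosome protein gene, had H3K4me3 at 7.70-fold, Pdcd4 at 3.55 and Cmah, a sialic acid hydroxylase gene, at 1.96. The Pmel peak, chr10:128704046-128705278, reached the window only at its upstream edge. A GSK Pol II peak lay just past the window of each of the 3, at 1116 bp for Pmel, 1131 bp for Cmah and 1498 bp for Pdcd4. Spi1 also had a GSK Pol II peak just past its window, at 1297 bp.

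LSD1 was listed at more of the Veh-only promoters in GSK than in Veh. Its share was 63.9% in Veh and 73.0% in GSK, with 1257 promoters in both lists, 173 in Veh only, 378 in GSK only and 431 in neither. Those with LSD1 in GSK only were 16.9% of the set, beside 9.92% of all promoters, and those with it in Veh only were 7.73%, beside 4.51%. The net change was 9.16 percentage points (7.19 to 10.99), and 10.6 (8.68 to 12.4) with both LSD1 lists held to the 19919 peaks with the highest −log10 p. Of the promoters with LSD1 in Veh, 87.9% (86.1 to 89.5) had it in GSK.

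The net change of LSD1 was of like size in the other sets with Pol II, at 10.0 percentage points where Pol II was in both and 9.14 where it was in GSK only. The level of LSD1 differed more than its change: 74.6% of promoters with Pol II in both had a Veh LSD1 peak, and the Veh-only share differed from it by -10.7 percentage points (-12.9 to -8.46). The Veh-only promoters lay 1.10 points above those with Pol II in GSK only (-2.60 to 4.87), an interval that holds 0. Where LSD1 was in both lists, the GSK/Veh fold ratio had a median of 1.13 (quartiles 0.974 and 1.35) at the Veh-only promoters and 1.16 where Pol II was in both.

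Promoters with LSD1 in 1 list included Stard3, a cholesterol transfer protein gene, with a Veh LSD1 fold of 4.54, and Arhgef39 with 4.06, besides Tkfc with 3.40. None of these had a GSK LSD1 peak. Traf5, Map7d1 and Rpl36, given above, were the strongest by Pol II among promoters with LSD1 in GSK only.

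H3K4me1 was also listed at more of the Veh-only promoters in GSK. Its share was 41.9% in Veh and 52.2% in GSK, with 792 in both lists, 146 in Veh only and 376 in GSK only. H3K4me1 was in GSK only at 16.8%, beside 9.78% of all promoters, and in Veh only at 6.52%, beside 3.5%. The net change was 10.3 percentage points (8.41 to 11.99), and 4.11 (2.14 to 6.02) with both lists held to 34387 peaks. With windows of 500 bp on either side of the TSS, it was 5.27 and the Veh share was 22.2%. With the deposited lists it was 11.6 where Pol II was in both and 10.3 where it was in GSK only, so the 3 sets were alike in size of change. Tomm6 had H3K4me1 in GSK only at 4.36-fold, Tsga10 at 3.02 and Apip, a methionine salvage enzyme gene, at 3.65.

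H3K4me2 was listed at fewer of the Veh-only promoters in GSK, where its list was also shorter. Its share was 68.9% in Veh and 46.4% in GSK, with 963 in both lists, 579 in Veh only, 75 in GSK only and 622 in neither. H3K4me2 was in Veh only at 25.9%, beside 12.8% of all promoters, and in GSK only at 3.35%, beside 1.92%. It was in Veh only at 28.6% of promoters with Pol II in both and 20.2% of those with Pol II in GSK only. The net change was -22.5 percentage points (-23.8 to -21.0) with the lists as deposited. It was -24.8 where Pol II was in both and -16.7 where Pol II was in GSK only. Both lists were then held to the 9437 peaks with the highest −log10 p. The net change at the Veh-only promoters was then 0.670 (-1.34 to 2.67), so the sign was the opposite and the interval held 0. It was then 2.57 where Pol II was in both and 4.79 where it was in GSK only. List length and read total go with treatment here, and their parts cannot be told apart from it.

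Within the deposited H3K4me2 lists, the Veh-only promoters kept more of their peaks than promoters with Pol II in both and fewer than those with Pol II in GSK only. Of those with H3K4me2 in Veh, 62.5% (60.0 to 64.8) had it in GSK, a difference of 7.65 percentage points from promoters with Pol II in both (4.79 to 10.5) and of -6.23 from those with Pol II in GSK only (-10.6 to -1.67). The promoters with H3K4me2 in GSK only included Mfng, a modifier of Notch receptors, at 3.78-fold, Cdk5rap1 at 4.33 and Uba3, the catalytic subunit of the NEDD8-activating enzyme, at 4.62.

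With the lists as deposited, H3K27ac gave the largest differences in Veh peak share between the Veh-only promoters and the other sets with Pol II. The Veh-only promoters had it at 38.7% in Veh and 9.83% in GSK, with 197 in both lists, 670 in Veh only, 23 in GSK only and 1349 in neither. H3K27ac was in Veh only at 29.9%, beside 12.1% of all promoters, and in GSK only at 1.03%, beside 0.335%. It was in Veh only at 36.7% of promoters with Pol II in both and 22.2% of those with Pol II in GSK only. The net change was -28.9 percentage points (-29.6 to -27.9) at the Veh-only promoters. It was larger in size where Pol II was in both, at -35.9, and -21.1 where Pol II was in GSK only. The GSK list was much shorter. With both lists held to 2751 peaks, the net change at the Veh-only promoters was -1.56 (-2.95 to -0.133), from 11.4% to 9.83%. It was then -1.54 where Pol II was in both and 0.111 where it was in GSK only, and 40.8% of the Veh-only promoters with H3K27ac in the shortened Veh list had it in GSK, against 66.9% where Pol II was in both.

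Sets can also be compared within 1 library, where the length of that list still bears on the size of a difference. In the Veh list, the H3K27ac share of the Veh-only promoters differed by -31.3 percentage points (-33.6 to -29.0) from that of promoters with Pol II in both, which was 70.0%. In the same list, 10.4 points more of them had it than of promoters with Pol II in GSK only (6.77 to 13.9), whose share was 28.3%. That difference was 4.25 points with the Veh list cut to the length of the GSK list, below the 6.35 of H3K4me3, and 5.47 with both Pol II lists held to a −log10 q of at least 2. In the GSK list this difference was 2.58 points (0.36 to 4.58), again with the Veh-only promoters above. Of the Veh-only promoters with H3K27ac in Veh, 22.7% (20.1 to 25.6) had it in GSK, against 47.6% where Pol II was in both and 21.7% where Pol II was in GSK only.

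The gap to promoters with Pol II in both was also seen within bins of the Veh Pol II −log10 p. These bins are wide and are made from a value that the rule used, so they do not match the sets for Pol II strength. In the bin of −log10 p from 3 to 5, a Veh H3K27ac peak was at 24.8% of the Veh-only promoters and 47.9% of those with Pol II in both. In the bin from 7 to 10 the shares were 43.6% and 63.9%, and in the bin from 10 to 15 they were 46.9% and 71.3%. For LSD1 the gap was narrower, 56.5% against 66.8% from 3 to 5 and 68.5% against 77.1% from 10 to 15, and from 15 to 20 both shares were 77.5%. H3K4me3 was at 78.6% of the Veh-only promoters in the weakest bin and at 96.8% to 100% in the others.

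Some Veh-only promoters kept H3K27ac. Aars, the alanyl-tRNA synthetase gene, had it at 4.49-fold in Veh and 5.03 in GSK, and the shared start of Gen1 and Smc6, a DNA repair nuclease and a chromosome maintenance protein, at 3.34 and 4.46. It was in GSK only at Pdcd6 (5.05-fold), Sys1 (5.20) and Timm10 (5.65). Where H3K27ac was in both lists, the GSK/Veh fold ratio had a median of 1.23 at the Veh-only promoters and 1.17 where Pol II was in both.

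**Figure D2:**
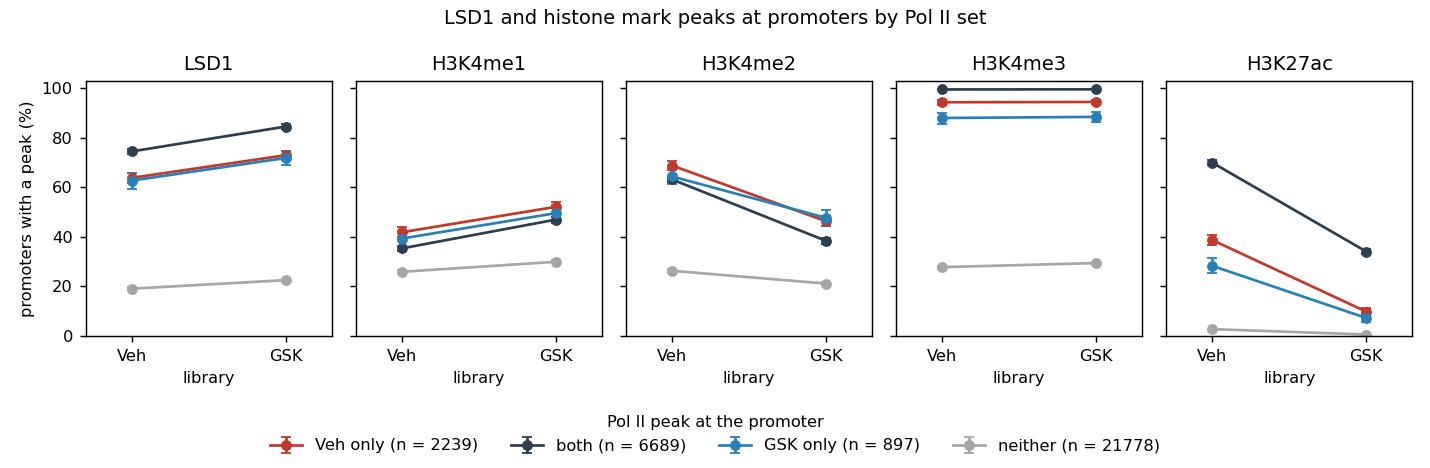
Share of promoters (y axis, percent) with a peak in the Veh and the GSK library (x axis) for LSD1 and 4 histone marks, in 4 promoter sets split by Pol II peaks. Points are shares, error bars Wilson 95% intervals, and the red set is the 2239 promoters with Pol II in Veh only. H3K4me3 is level in the red set (94.4% and 94.6%), LSD1 is higher in GSK (63.9% and 73.0%), and H3K27ac is at 38.7% and 9.83%, below the set with Pol II in both.

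**Figure D3:**
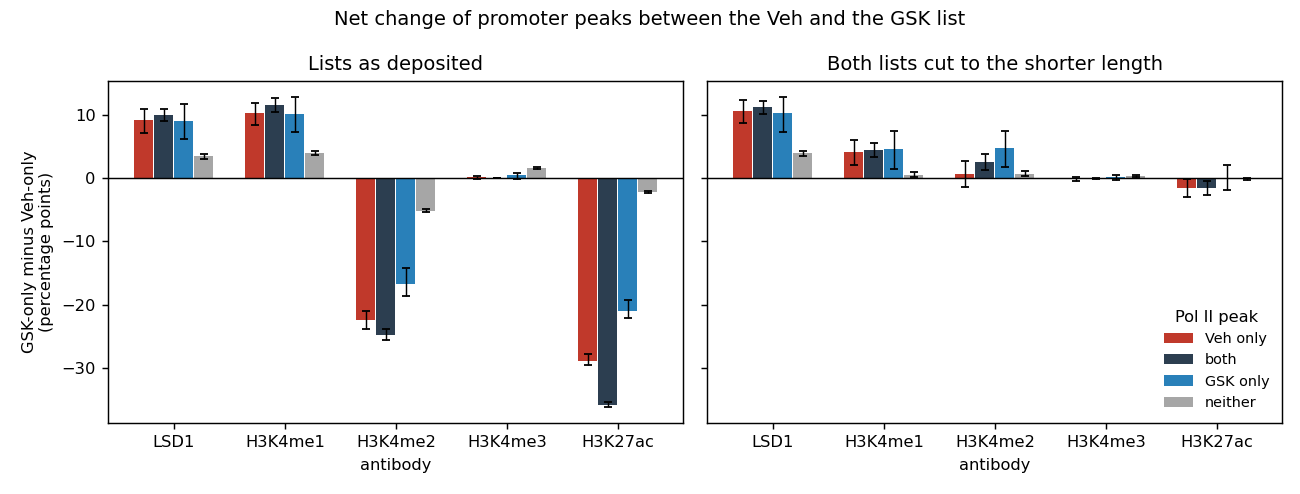
Net change of promoter peaks, the share in GSK only minus the share in Veh only in percentage points (y axis), for 5 antibodies (x axis) and 4 promoter sets, with the lists as deposited (left) and with both lists of an antibody cut to the shorter length (right). Error bars come from Wilson 95% intervals of the GSK-only share among promoters in 1 list only. For promoters with Pol II in Veh only, H3K4me2 goes from -22.5 to 0.670 and H3K27ac from -28.9 to -1.56, while LSD1 is 9.16 and 10.6.

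Grouping the Veh-only promoters by LSD1 gave net changes of the same sign in each group for H3K4me1, H3K4me2 and H3K27ac. The H3K4me1 and H3K27ac values were smallest in size where LSD1 was in neither list. The H3K4me1 net change was 12.7 percentage points (10.2 to 14.997) at the 1257 promoters with LSD1 in both lists, 8.99 (4.73 to 12.3) at the 378 with LSD1 in GSK only, 8.67 (1.25 to 14.7) at the 173 with LSD1 in Veh only and 4.87 (0.682 to 8.64) at the 431 with neither. The H3K4me2 net change was -21.1, -26.7, -20.8 and -23.7 in the same groups. For H3K27ac it was -31.4 (-32.2 to -30.0), -27.5 (-29.2 to -24.0), -32.4 (-33.3 to -27.4) and -21.3 (-22.5 to -18.6). Where Pol II was in both, the H3K27ac net change was -34.6 with LSD1 in both lists and -37.0 with LSD1 in neither. Where Pol II was in GSK only, it was -24.0 and -11.4. All of these values used the lists as deposited. Veh-only promoters with LSD1 in neither list had H3K4me3 in Veh at 73.5%, against 99.8% of those with LSD1 in both, and H3K27ac at 26.0% against 42.8%. H3K27ac was in Veh only at 96 and in both lists at 16 of those without LSD1, against 407 and 131 of those with LSD1 in both. A smaller part of the Veh H3K27ac peaks was thus also in GSK without LSD1.

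At the level of single promoters, 686 Veh-only promoters (30.6%, 28.8 to 32.6) were in the same state in Veh and GSK for all 5 antibodies other than Pol II. That share was 25.5% where Pol II was in both, 37.2% where Pol II was in GSK only and 76.5% where it was in neither. H3K4me3 and LSD1 were both kept at 1253 Veh-only promoters (56.0%), against 68.1% where Pol II was in both and 55.5% in GSK only. At 662 (29.6%) H3K4me3 was in both lists and H3K27ac in Veh only, against 36.5% and 22.0% in the same sets. The most frequent set of marks was LSD1, H3K4me1, H3K4me2 and H3K4me3 without H3K27ac, at 367 promoters (16.4%) in Veh and 539 (24.1%) in GSK. This set of marks was at 8.73% in Veh and 16.7% in GSK where Pol II was in both. It was at 17.9% and 25.9% where Pol II was in GSK only. None of the 5 was listed at 93 Veh-only promoters (4.15%) in Veh and 95 (4.24%) in GSK. Where Pol II was in both these shares were 0.0897% and 0.120%, and where Pol II was in GSK only they were 9.36% in each treatment.

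The genes of the Veh-only promoters were read against lists of gene functions, counting a gene when any of its TSSs was in the set. Over all genes, 7.54% were in the set, and of the 7677 genes with Pol II in Veh, 25.7% (24.7 to 26.7). Shares of Veh-bound genes are given below because the lists differ in how many of their genes had Pol II in Veh. These shares take no account of Veh Pol II peak strength, and the share in the set fell as that strength rose, as given above. The lists were chosen with earlier results of these data known, and no list was tested. The lists from mitochondrial import to histones were matched by gene symbol pattern, so they hold some genes of other function and some opposite-strand transcripts that share a peak with a listed gene. Example genes in them were picked after their values were seen, from those with higher Veh Pol II −log10 p, unless named above.

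Genes of mitochondrial import and carriers were often in the set. These proteins bring precursors and metabolites across the mitochondrial membranes. Of 73 genes matched, 19 were in the set (26.0%), counting both Tomm6 and the non-coding Tomm6os with its shared peak, which is 44.2% (30.4 to 58.9) of the 43 with Pol II in Veh. Besides Tomm6, Timm10, a chaperone of the intermembrane space, had a Pol II fold of 5.57 and Timm22, a channel of the inner membrane, 5.31. All 19 had H3K4me3 in both lists, as did 94.2% of all Veh-only promoters.

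The respiratory chain and ATP synthase gave 18 of 98 genes, 24.3% (16.0 to 35.2) of the 74 Veh-bound ones, near the share over all genes. Atp5b, the catalytic beta subunit of ATP synthase, had a Pol II fold of 6.97, with LSD1 in GSK only (4.61) and H3K27ac in Veh only (3.83). Atp5g1, a subunit of the membrane ring, had 6.53, and Cox6a1, of cytochrome c oxidase, 6.56 with LSD1 in Veh only (3.55). Of the 18 genes, H3K27ac was in Veh only at 9 and in neither list at 9, against 29.9% and 60.3% of all Veh-only promoters. Mitochondrial ribosomal proteins gave 12 of 78 genes, 19.4% of 62 Veh-bound, led by Mrps21 (6.26).

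In protein turnover, proteasome subunits gave 9 of 39 genes, 30.0% (16.7 to 47.9) of 30 Veh-bound, with Psma4, a core particle subunit, at a Pol II fold of 5.66 and Psmc1, an ATPase of the regulatory particle, at 5.23. Ubiquitin conjugation and ligase genes gave 40 of 277, 32.0% (24.5 to 40.6) of 125 Veh-bound, among them the F-box genes Fbxo46 (6.78) and Fbxl5 (5.92) and Cul3 (4.62), a ligase scaffold.

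In gene expression itself, Pol II subunits, general factors and Mediator gave 17 of 100 genes, 22.4% of 76 Veh-bound. Polr2b, the second largest Pol II subunit, had a fold of 5.37, with LSD1 at 5.14 in Veh and 5.24 in GSK and H3K4me2 in GSK only (4.73), and Med13, of the Mediator kinase module, had 5.03. LSD1 was in both lists at 14 of these 17 genes, among them Med9 and its opposite-strand neighbour Med9os, which share 1 promoter and all its values. Over all Veh-only promoters, LSD1 was in both lists at 56.1%. Zinc finger genes of the Zfp name gave 49 of 403, 26.8% of 183 Veh-bound, led by Zfp568 (7.59). Translation factors and tRNA synthetases gave 13 of 89, 17.8% of 73 Veh-bound, with Aars at 7.12. That count includes the methyltransferase genes Eef1akmt3, Eef1aknmt and Eef2kmt and the kinase gene Eif2ak2, which match by symbol only. Splicing factors gave 7 of 66, 12.1% of 58.

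Few or none of the genes in some other lists were in the set. Cytosolic ribosomal proteins gave 2 of 85 genes, Rpl36 and Rps25 (3.34-fold), or 2.53% (0.697 to 8.77) of the 79 Veh-bound. Replication-dependent histones gave 0 of 68 genes, 56 of them Veh-bound, which allows a share of up to 6.42% by the Wilson interval. Cell cycle and DNA replication genes gave 3 of 34, 9.38% (3.24 to 24.2) of 32 Veh-bound. The Veh Pol II strength of these lists was not compared.

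**Figure D4:**
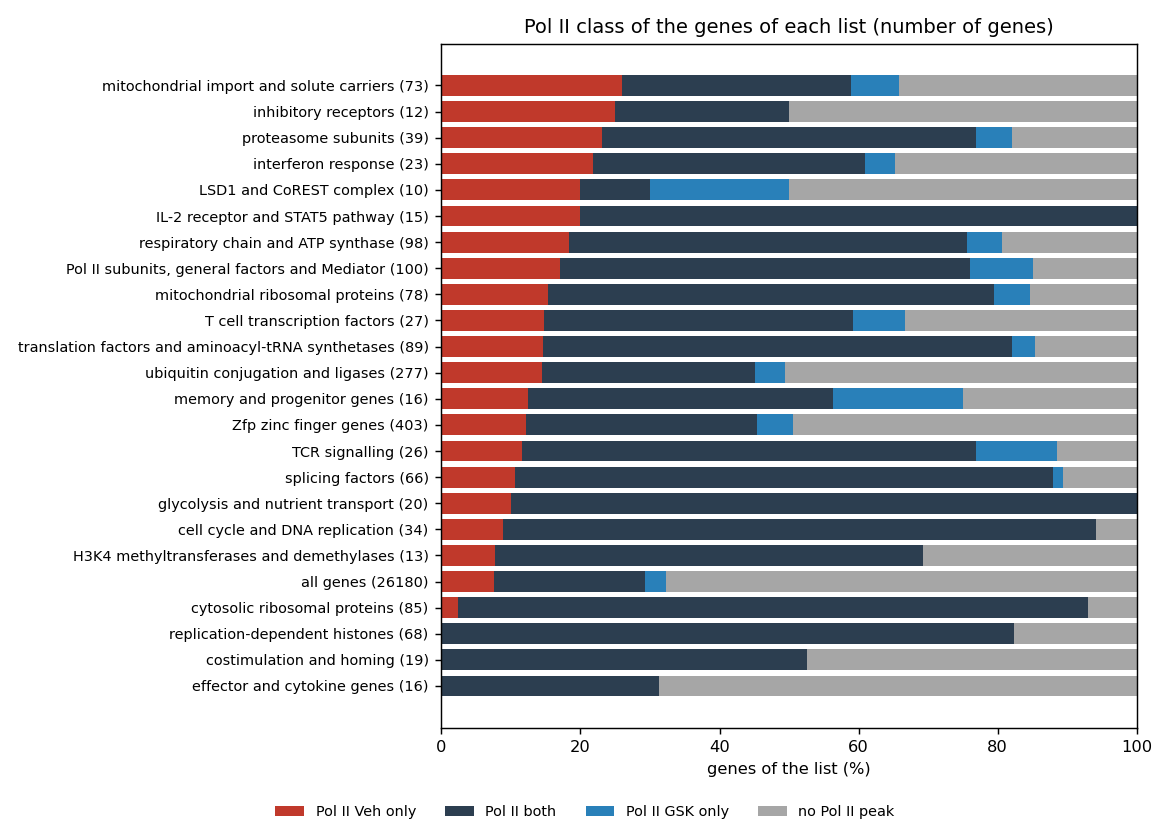
Pol II class of the genes of each list, in percent of the genes of the list (x axis), with the number of genes in parentheses and the lists ordered by the share with a promoter in the Veh-only set (red). Dark blue is Pol II in both treatments, light blue GSK only and grey no Pol II peak. The red share is 26.0% for mitochondrial import, 7.54% over all genes, 2.35% for cytosolic ribosomal proteins and 0 for histones.

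The genes of LSD1's own machinery were read as a separate list. Of 10 LSD1 and CoREST complex genes, 2 had Veh-only promoters, 1 had Pol II in both treatments, 2 in GSK only and 5 in neither. The 2 are 66.7% (20.8 to 93.9) of 3 Veh-bound genes, an interval that holds the 25.7% over all Veh-bound genes. Rcor3 and Gfi1 had Pol II in GSK only, at 2.69-fold and 2.59-fold. Rcor1, which encodes CoREST, had a Veh Pol II fold of 5.05, LSD1 in GSK only (3.94) and H3K27ac at 4.01 in Veh and 4.68 in GSK. Phf21a, a reader of unmethylated H3K4 in the complex, had a Pol II fold of 5.31 and LSD1 at 11.8 in Veh and 14.4 in GSK. Kdm1a itself had no Pol II peak in either treatment, with LSD1 at 4.40 in Veh and 5.96 in GSK. Of 13 other H3K4 methyltransferase and demethylase genes, 1 was in the set, Rbbp5, a core subunit of the methyltransferase complexes, with a Pol II fold of 5.05, LSD1 in GSK only (5.56) and H3K27ac in Veh only (5.36).

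Among 208 genes of T cell lists, 25 had a Veh-only promoter (12.02%, 8.28 to 17.1), which is 17.01% (11.8 to 23.9) of the 147 Veh-bound ones. Another 122 had Pol II in both treatments, 9 in GSK only and 52 in neither. The Veh Pol II folds of the 25 were between 3.27 and 6.16, with a median of 4.33, so none was among the 10 strongest of the set. H3K4me3 was in both lists at 24 of them, all but Isg15, and LSD1 was in both at 9, in GSK only at 5, in Veh only at 1 and in neither at 10. H3K27ac was in both at 5, in Veh only at 3 and in neither at 17. Over all Veh-only promoters, H3K4me3 was in both lists at 94.2%. LSD1 there was in both at 56.1%, in GSK only at 16.9%, in Veh only at 7.73% and in neither at 19.2%. H3K27ac there was in both at 8.80%, in Veh only at 29.9% and in neither at 60.3%.

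The inhibitory receptors, which restrain T cells, gave 3 of 12 genes, and these are 3 of the 6 with Pol II in Veh. The interval of that share, 18.8 to 81.2%, holds the 25.7% over all Veh-bound genes. Pdcd1 had a Veh Pol II peak at chr1:94052409-94052662 of 6.04-fold (−log10 p 10.5), which spans its GC box, 77 bases before the TSS. Its H3K4me3 was at 6.07 in Veh and 6.43 in GSK and its H3K4me1 at 2.49 and 2.35. By −log10 p its H3K4me3 peak was at 27.1 in Veh and 19.4 in GSK, and by extent it was longer in Veh, chr1:94051622-94052617, than in GSK, chr1:94052066-94052733. Fold and −log10 p thus ran in opposite directions there, and no LSD1, H3K4me2 or H3K27ac peak was listed in either treatment. Vsir, which encodes VISTA, had a Pol II fold of 4.75, LSD1 in GSK only (5.80) and H3K4me3 at 4.27 and 4.37. Tigit had a Pol II fold of 4.48 with all 5 other marks in both lists, LSD1 at 7.25 and 7.09 and H3K27ac at 3.40 in Veh and 5.40 in GSK. The 3 receptors thus had H3K4me3 and H3K4me1 in both lists and differed in LSD1 and H3K27ac.

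Of 27 T cell transcription factor genes, 4 were in the set, and LSD1 and H3K4me3 were in both lists at all 4. The same held at 56.0% of all Veh-only promoters. Tbx21 had a Veh Pol II fold of 5.27, LSD1 at 4.70 in Veh and 7.11 in GSK, H3K4me2 at 5.32 and 4.09 and H3K4me3 at 3.71 and 3.99. Zeb1, a zinc finger and homeobox repressor, had a Pol II fold of 4.34 and LSD1 at 9.60 in Veh and 3.82 in GSK. Ikzf1, which encodes Ikaros, had a Pol II fold of 3.29 at this TSS and Pol II in both treatments at another. Its Veh Pol II summit lay upstream, at -869 bp from this TSS, and Ikzf1 left the set with windows of 500 bp. Runx1 had a Pol II fold of 3.47 and LSD1 at 5.24 and 4.62. Of the memory and progenitor genes, Satb1 (3.27-fold) and Myb (3.37-fold) were in the set, 2 of 16, with LSD1 in both lists at Satb1 and in GSK only at Myb. They are 22.2% (6.32 to 54.7) of 9 Veh-bound, and 3 other genes of that list had Pol II in GSK only.

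The interferon response list gave 5 of 23 genes, 35.7% (16.3 to 61.2) of 14 Veh-bound, an interval that holds the share over all genes. None of the 5 had an LSD1 peak in either treatment, which was so at 19.2% of all Veh-only promoters. Isg15 had the highest Veh Pol II values of the 25 T cell list genes in the set, 6.16-fold with a −log10 p of 12.7, and H3K4me1 at 2.82 and 3.13 as its only other mark. Its promoter, printed above, held the interferon element core in 3 overlapping copies. Mx1, named for a dynamin-like GTPase and annotated here as a transcribed pseudogene, had a Pol II fold of 6.07 and H3K4me3 at 5.23 and 4.87. Gbp3, a guanylate-binding GTPase gene, had a Pol II fold of 4.94 and H3K27ac at 4.04 and 4.52. Psmb8, an immunoproteasome subunit gene, had 4.13, and Ifit1 4.32.

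In receptor signalling, the TCR list gave 3 of 26 genes. Cd247, the zeta chain of the receptor complex, had a Veh Pol II fold of 4.33, with a GSK Pol II peak 1403 bp from its TSS, LSD1 in GSK only (2.92) and H3K27ac in Veh only (3.28). Nfatc2, a calcium-driven transcription factor gene, had 4.61, LSD1 at 3.36 and 3.84 and H3K27ac at 3.73 and 5.06, and Cd6 had 3.66. The IL-2 receptor and STAT5 list gave 3 of 15, Stat5a (4.96) with LSD1 at 6.41 and 5.88, and Stat5b (3.83) and Il2rg (3.44) with no LSD1 peak. Both STAT5 genes had H3K4me1 in GSK only, at 3.32 for Stat5a and 2.21 for Stat5b. The Stat5a Pol II summit lay 1154 bp downstream of the TSS used for these values, outside its window.

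Growth genes made up the rest. Mcm3, a subunit of the replicative helicase, had a Veh Pol II fold of 5.82, LSD1 in GSK only (4.17) and H3K27ac at 6.73 and 6.21. E2f1 had 4.01 and Cdk6 3.27, with LSD1 in both lists at E2f1 and in GSK only at Cdk6 (3.85). Their Veh Pol II summits lay upstream, at -884 bp from the TSS of E2f1 and -878 bp from that of Cdk6. Cdk6 left the set with windows of 500 bp. Of 20 genes of glycolysis and nutrient transport, 2 were in the set, Hk2 (4.91), a hexokinase gene with H3K4me3 as its only other mark, and Gpi1 (3.52), with LSD1 in Veh only (2.54). Effector and cytokine genes gave 0 of 16, 5 of them Veh-bound, which allows a share of up to 43.4% by the Wilson interval. Costimulation and homing genes gave 0 of 19, 10 of them Veh-bound, which allows up to 27.8%. Both intervals hold the 25.7% over all Veh-bound genes.

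**Figure D5:**
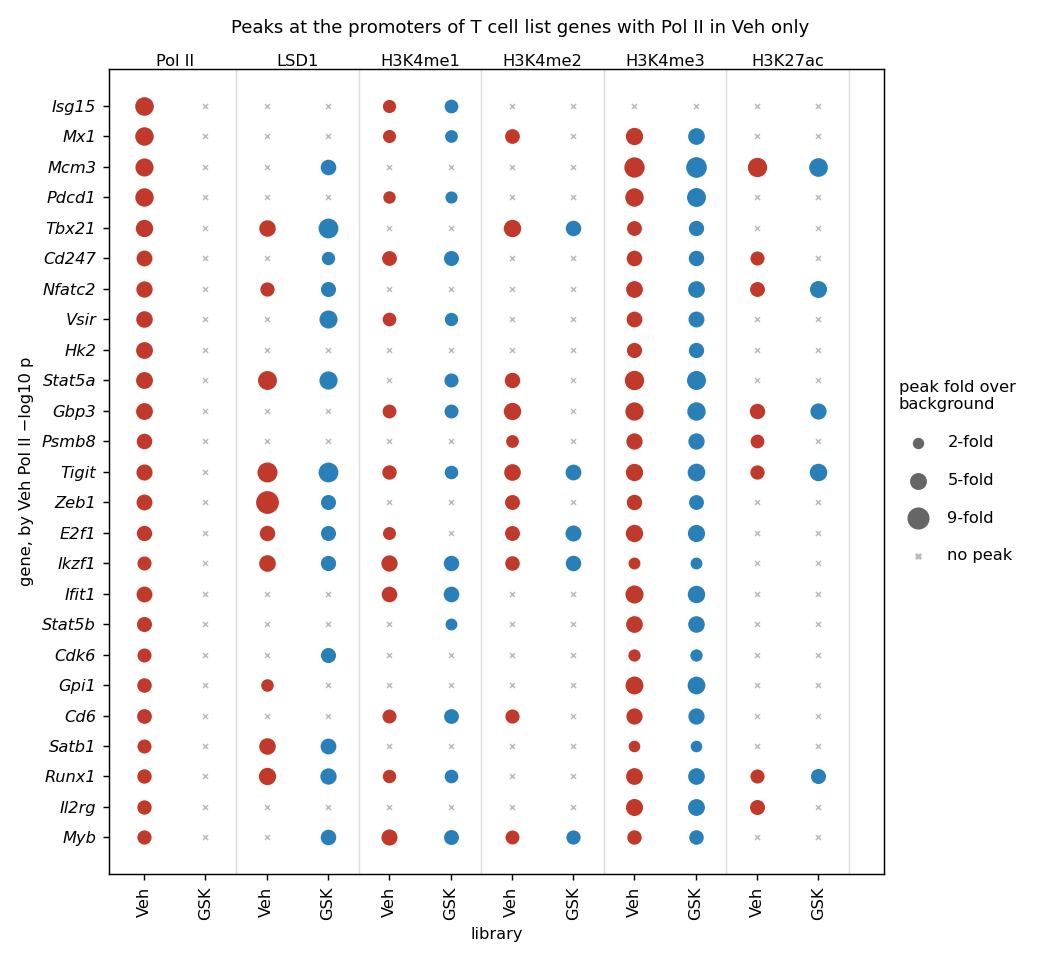
Peaks at the promoters of the 25 T cell list genes in the set (y axis, ordered by Veh Pol II −log10 p) in each of 12 libraries (x axis, red Veh and blue GSK). The area of a point is the fold of the strongest peak in the window over background, and a grey cross means no peak. H3K4me3 points are in both libraries at 24 of the 25 genes, and LSD1 points at 9, and the 5 interferon response genes have no LSD1 point.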

How the data were processed

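ChIP-seq peak lists of 12 libraries, 1 per antibody and treatment, were used, and 4 input samples served the authors as controls. Per the study's methods, the authors aligned reads to mm10 with Bowtie2, called peaks of each library against input with MACS2 at a p cutoff of 0.001. The authors deposited narrowPeak files for Pol II and LSD1 and broadPeak files for the histone marks, whose lowest −log10 p, above that cutoff, was not explained by the sources used here. The deposited columns hold a fold ratio over local background, −log10 p and −log10 q. The MACS2 score column was not used. Depth was not in these files.

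Windows of 1 kb on either side of 31603 TSSs of 45756 curated RefSeq transcripts were overlapped with the peaks (minimum 1 bp). The strongest peak by −log10 p gave each value. Gene lists were curated or matched by symbol pattern. Shares have Wilson 95% intervals and differences of shares Newcombe intervals, and the overlap code was tested on simulated data. Groups came from the labels. The promoters, gene lists and alternatives were chosen with earlier results of these data known.

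Named genes were the 10 strongest by Veh Pol II −log10 p, up to 20 T cell list genes (the other 5 are also named), the strongest 3 in each of 8 classes of marks, and 3 at each side of the rule's edges. Symbols of the form Gm or Rik were left out of the rule except among the 10 strongest. The added alternatives were 1 TSS per peak, no GSK peak within 5 kb and GENCODE vM21 TSSs.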

Additional observations from a re-analysis of the deposited data

How the results depend on the processing

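No paired analysis was possible because each antibody and treatment has 1 library, and for the same reason no replicate could be left out. Of 164 recomputed values, 129 stayed within their counting interval (counts, within 1.5 times), 34 moved further and 1 turned sign. The number of Veh-only promoters was between 1692 (1 TSS per Veh Pol II peak) and 3154 (GENCODE TSSs).

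The length of the lists mattered most. With both lists of an antibody cut to the shorter length, the net change in percentage points was 0.670 for H3K4me2, -1.56 for H3K27ac and 4.11 for H3K4me1. H3K4me2 was the 1 value counted as turned in sign. H3K4me3 went from 0.134 to -0.134, which stayed within its counting interval. With the Veh H3K27ac list cut to the GSK length, the H3K27ac difference from promoters with Pol II in GSK only was 4.25.

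With windows of 500 bp, the net change was 11.7 for LSD1, 5.27 for H3K4me1 and -19.02 for H3K4me2, and the Veh shares were 61.8% for LSD1, 22.2% for H3K4me1, 59.7% for H3K4me2 and 96.6% for H3K4me3. With windows of 2 kb, the net change was 7.02 for LSD1 and -24.2 for H3K4me2, and the Veh shares were 57.5% for H3K4me1, 71.6% for H3K4me2 and 92.3% for H3K4me3.

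Stricter Pol II lists gave a set with more marks. With a −log10 q of at least 2 in both lists, the H3K27ac net change was -31.9, its Veh share 45.5% and its difference from promoters with Pol II in GSK only 5.47, the Veh shares of LSD1 and H3K4me3 were 67.5% and 98.8%, and the CpG ratio was at or above 0.6 at 75.1%. With the top 10000 Pol II peaks, these were -30.9 and 43.0% for H3K27ac, 66.4% for LSD1, 98.1% for H3K4me3 and 75.2% for the CpG ratio. With a Veh Pol II −log10 p of at least 5, they were -31.5 and 42.1% for H3K27ac, 98.3% for H3K4me3 and 75.3% for the CpG ratio. With 1 TSS per Veh Pol II peak, the H3K27ac net change was -27.5 and the H3K4me3 share 93.3%. With GENCODE TSSs they were -30.8 and 96.0%. The cause of these shifts was not tested.

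Of the 1973 genes, 78.6% were also chosen with a −log10 q of at least 2 and 97.7% with the Pol II summit inside the window. Of the 25 T cell genes, 20 to 25 were kept under the 10 other ways of choosing the promoters. Depth limits all of this: a promoter without a GSK Pol II peak had none above the cutoff in 1 library, which does not show that Pol II was absent.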
